A study of Mus musculus with 12 samples.

Results

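The 9 genes described here are the mouse adhesion GPCR genes Celsr1, Celsr2 and Celsr3, the latrophilin genes Adgrl1, Adgrl2 and Adgrl3, and the BAI genes Adgrb1, Adgrb2 and Adgrb3, out of 55573 genes counted and 16820 genes tested. They were chosen by gene family name, with the high YTHDF3 RIP value of Celsr1 over Input already known. The RNA came from hippocampal cultures of C57BL/6 pups taken at birth, in which neurons had grown for 14 days. Each of 3 groups was an RNA immunoprecipitation (RIP) with an antibody to 1 endogenous protein, YTHDF1, YTHDF2 or YTHDF3, and the fourth group, Input, was RNA of the lysate with no antibody. Each group had 3 libraries (n = 3 throughout). The labels name no allele or treatment, the study's methods name a mitotic inhibitor against dividing cells, pups of both sexes from a litter were pooled, and no RIP with a control antibody was analysed here. Nothing says that the replicates came from separate litters, so p-values measure the spread between these libraries. A value of RIP over Input is therefore a share of RNA relative to the lysate.

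Adhesion GPCRs carry a long extracellular region that binds partners on other cells and a membrane core that couples to G proteins. CELSR proteins have cadherin repeats and act in planar cell polarity and axon guidance. Latrophilins bind teneurins and FLRT proteins across synapses, and BAI proteins bind C1q-like proteins or Nogo receptors and signal through ELMO, DOCK and RAC regulators. YTHDF proteins are cytoplasmic readers of N6-methyladenosine (m6A), a mark that is placed within short sequence contexts and is found most densely near stop codons.

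All 9 genes had a large exonic length. Exonic length, the merged exons of a gene, ran from 6487 bases for Adgrb2 to 18559 bases for Adgrb3, which placed the genes between the 75.7th and the 99th percentile of the genes tested. In the GRCm38 build, the Celsr1 gene lies at 15:85898929-86033777, Celsr2 at 3:108390851-108415552, Celsr3 at 9:108826320-108852969, Adgrl1 at 8:83900105-83941954, Adgrl2 at 3:148815583-148990555, Adgrl3 at 5:81020138-81825133, Adgrb1 at 15:74516195-74589465, Adgrb2 at 4:129984870-130022633 and Adgrb3 at 1:25067476-25829707. Celsr1, Celsr2, Adgrl2 and Adgrb3 are on the minus strand and the others on the plus strand. Their identifiers are ENSMUSG00000016028, ENSMUSG00000068740, ENSMUSG00000023473, ENSMUSG00000013033, ENSMUSG00000028184, ENSMUSG00000037605, ENSMUSG00000034730, ENSMUSG00000028782 and ENSMUSG00000033569, in the order of the genes above. Exons of Celsr3 and Adgrb1 each hold an annotated miRNA gene on the same strand, over 0.54% and 1.32% of their length. Antisense genes overlap 12.89% of Adgrl1 exons and 8.91% of Adgrl3 exons, and counting was strand-specific.

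Because YTHDF proteins bind m6A, the most frequent form of its sequence context, GGACT in DNA letters, was located on the mRNA strand of 1 GENCODE transcript a gene. Counts of the motif were 24 in Celsr1, 16 in Celsr2, 26 in Celsr3 and 16 in Adgrl1. Adgrl2, Adgrl3 and Adgrb1 held 9 each, Adgrb2 held 10 and Adgrb3 held 5, against a median of 3 over 13243 protein-coding transcripts. The transcript used held 4670 bases for Adgrl2, 6203 for Adgrl3 and 5448 for Adgrb3. The merged exons of these genes hold 14198, 17750 and 18559 bases, so copies outside the transcript used were not counted. Per kb of transcript, Celsr3 had 2.25 and Celsr1 2.21 copies, at the 92.9th and the 92.3rd percentile, and Adgrb3 had 0.918, below the median of 1.04. In the 400 bases centred on the end of the stop codon, 6 of the 8 members with a full window held the motif, compared with 40.5% of 11647 such windows. For these 6, the copy nearest to the stop codon follows, because this is where m6A is most often found. The motif is in capitals and the mRNA strand is written.
Celsr1: gaagcctgcctgGGACTgctgcctatggg
Celsr2: cacggtggatgaGGACTcctctggctctg
Celsr3: gaagagccttcaGGACTgatcgcaaggca
Adgrl1: cagcccccttggGGACTatgacctgggcc
Adgrl3: tggcaaccaacaGGACTgctaacacctgg
Adgrb2: gagtgccacgccGGACTgcccactgcaca

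In GRCm38 these stretches lie at chr15:85900623-85900651 (minus strand), chr3:108393012-108393040 (minus), chr9:108851384-108851412 (plus), chr8:83939214-83939242 (plus), chr5:81795079-81795107 (plus) and chr4:130022337-130022365 (plus), in the same order. The Celsr2 copy is in the coding sequence, with its A 43 bases before the last base of the stop codon. The other copies are in the 3′ UTR, with the A between 13 bases (Adgrb2) and 142 bases (Adgrl1) after it. The Celsr1 copy lies 59 bases, the Celsr3 copy 70 bases and the Adgrl3 copy 30 bases after it. Adgrb1 and Adgrb3 held no copy in the window, and the Adgrl2 transcript has a 3′ UTR of 81 bases, too short for the full window. The motif is only a match of letters, and no modification was measured in these libraries.

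Counts per library summed to between 6020072 and 38909592. Input libraries held 9092494 to 13833973 counts, YTHDF1 RIP libraries 10037804 to 38909592, YTHDF2 RIP libraries 6020072 to 9259893 and YTHDF3 RIP libraries 21395271 to 22400602. Libraries differed in markers of other cells. The summed astrocyte markers ran from 251 to 2428 CPM (counts scaled to the TMM-adjusted library total) in Input, from 254 to 1131 in YTHDF1 RIP, from 549 to 1241 in YTHDF2 RIP and from 184 to 1437 in YTHDF3 RIP. The neuronal markers summed to 1273 to 2310, 1311 to 1969, 622 to 1221 and 824 to 1810 CPM in the same order, while microglial and endothelial markers never summed to more than 3.97 and 3.24 CPM. Pdgfra, a marker of oligodendrocyte precursors, was at 0.533 CPM in Input library 1 and 0.893 CPM in YTHDF3 RIP library 1, but at 117 and 155 CPM in YTHDF1 RIP and YTHDF2 RIP library 1. Library 1 thus stood apart in Pdgfra within Input and YTHDF3 RIP but not within the other RIPs, although the lysate of each replicate was described as shared by all of them. The astrocyte sum was lowest in library 1 of every group. The oligodendrocyte lineage markers summed to 1467 CPM in YTHDF1 RIP library 1, of which Olig1 made up 1198 CPM, and to 369 and 662 CPM in the other libraries of that RIP. Without Input library 1, the same numbers of members were called against Input as with it, 8, 8 and 7 in the order YTHDF1, YTHDF2 and YTHDF3. The log2 fold changes were then 2.34, 2.44 and 1.76 for Celsr1 and 1.05, 0.93 and 0.93 for Adgrl2. Without YTHDF3 RIP library 1, 7 members were called with YTHDF3 and Celsr1 was at 2.35. In such bulk libraries, fewer cells of a type and less RNA per cell cannot be told apart.

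In Input, levels per kb of exonic length (TMM-scaled CPM per kb, mean ± SD) were highest for Adgrl1, at 48.0 ± 3.67, followed by Adgrb2 at 37.3 ± 3.51. Celsr2 followed at 21.0 ± 2.32 and Adgrb1 at 17.5 ± 3.33, and the libraries of these 2 genes overlapped. Celsr3 (5.53 ± 0.489) and Adgrl3 (5.28 ± 0.395) also overlapped with each other and stood below Adgrb1. The lowest were Adgrb3 (2.87 ± 0.0216), Celsr1 (2.54 ± 1.22) and Adgrl2 (1.86 ± 0.543), whose libraries overlapped between neighbours. By this measure the lysate thus held mostly Adgrl1 and Adgrb2 of these mRNAs, and little Celsr1. These levels divide counts by merged exons, which for Adgrb3, Adgrl2 and Adgrl3 are much longer than the transcripts used above. They hold 18559, 14198 and 17750 bases, against 5448, 4670 and 6203 bases. The places of these genes in the order, here and after RIP, therefore depend on the length used.

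The order after RIP was close to that in Input, with the same first 5 genes in the YTHDF2 RIP and YTHDF3 RIP. In the YTHDF1 RIP, Celsr2 was first at 122 ± 55.2 CPM per kb, ahead of Adgrl1 at 104 ± 39.3, although the libraries of neighbours overlapped from the first to the sixth place. Celsr1 stood at 15.3 ± 2.85 CPM per kb there, apart from Adgrb3 at 7.75 ± 2.01, and Adgrl2 was last at 4.51 ± 1.44. In the YTHDF2 RIP, Adgrl1 (90.9 ± 17.3), Adgrb2 (69.4 ± 25.6), Celsr2 (61.8 ± 14.9) and Adgrb1 (52.0 ± 22.8) overlapped between neighbours and stood above Celsr3 (16.7 ± 1.51) and Celsr1 (16.3 ± 4.97). In the YTHDF3 RIP, Adgrl1 was first at 113 ± 10.6 CPM per kb and apart from Adgrb2 at 68.7 ± 9.85.

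Celsr1 was the member with the least RNA per library in Input beside Adgrl2, at 17.4, 23.3 and 43.1 TMM-scaled CPM. It rose to 164, 140 and 202 CPM in the YTHDF1 RIP and to 117, 218 and 205 CPM in the YTHDF2 RIP. In the YTHDF3 RIP it was at 53.4, 96.8 and 186 CPM. No RIP library overlapped with an Input library, but the libraries of a group were far apart. In Input and YTHDF3 RIP, library 1 had both the least Celsr1 and the lowest astrocyte marker sum (251 and 184 CPM), and library 3 had the most of each (2428 and 1437 CPM). In the YTHDF2 RIP as well, the libraries with the least and the most Celsr1 had the lowest and the highest astrocyte sum (549 and 1241 CPM). In the YTHDF1 RIP the library with the most Celsr1 had a sum of 674 CPM, between those of the other libraries, and the library with the least, library 2, had the highest sum (1131 CPM). Neural progenitor markers were also highest in library 3 of Input (619, against 308 and 307 CPM) and of YTHDF3 RIP (754, against 299 and 411 CPM). Dcx, which also marks immature neurons, alone made up 475 and 489 CPM of these 2 sums. It made up 269 and 216 CPM of the sums in Input libraries 1 and 2. Nes was at 26.8, 48.7 and 82.9 CPM in Input and at 58.6, 104 and 168 CPM in YTHDF3 RIP. Sox2, Pax6 and Eomes were also highest in library 3 of both groups. In the YTHDF1 RIP and the YTHDF2 RIP the sum was highest in library 2 (781 and 328 CPM). Dcx made up 559 and 135 CPM of these. Library 2 had the least Celsr1 of the YTHDF1 RIP and the most of the YTHDF2 RIP. The part of RNA from astrocytes and neural progenitors in the Celsr1 level was not tested.

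**Figure D1:**
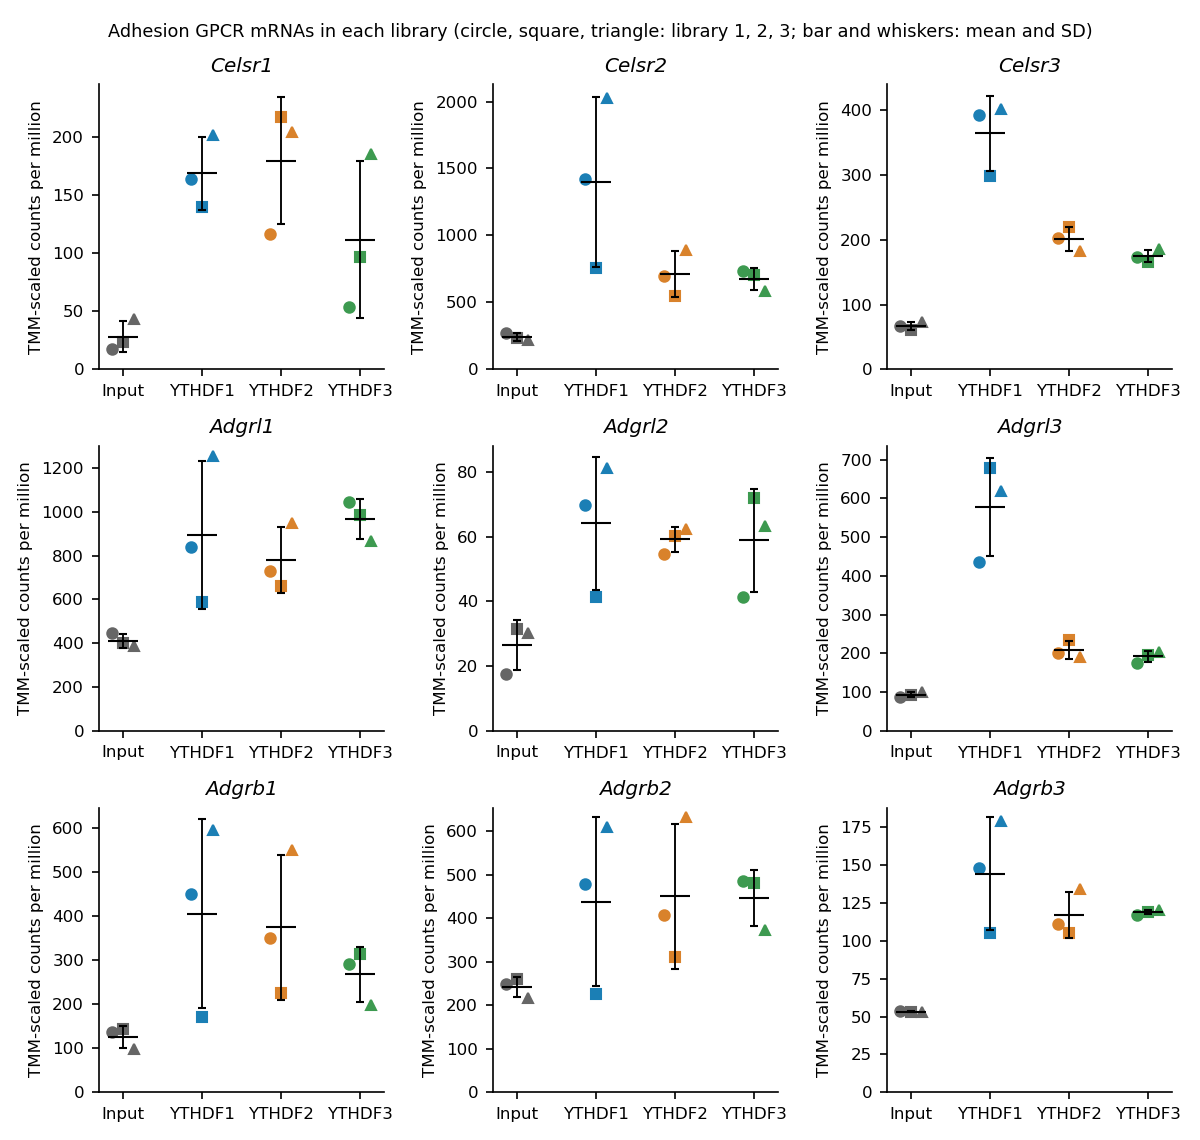
TMM-scaled CPM (vertical axes, starting at 0) of each gene in the 12 libraries, with 1 panel a gene, symbols for libraries 1 to 3 and a bar with whiskers for the mean and SD. Every RIP library lies above all 3 Input libraries except library 2 of the YTHDF1 RIP for Adgrb2, at 226 CPM, and Adgrl3 is higher in every YTHDF1 RIP library than in any other library.

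To ask which of these mRNAs were enriched with each reader, RIP was compared with Input, and a gene was called when it differed at least 1.25-fold with an adjusted p of at most 0.05 in edgeR's quasi-likelihood test with Benjamini-Hochberg adjustment. In the YTHDF1 RIP, 8 of the 9 mRNAs were enriched, and none was depleted. Among all genes tested, 27.5% were called higher and 26.1% lower. Of the genes within the members' range of length, 50.1% were called higher. The enriched members were all 3 Celsr mRNAs, all 3 latrophilin mRNAs, Adgrb1 and Adgrb3. For 8 of 9 members every YTHDF1 RIP library was above every Input library, as for 28.0% of all genes. The median log2 fold change of the members was 1.68, against 0.02 for all genes tested and 0.78 for the 3921 genes within the members' range of length.

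The Celsr mRNAs and Adgrl3 had the highest values with YTHDF1. Celsr2, at 271, 238 and 218 CPM in Input, reached 1422, 755 and 2025 CPM, a log2 fold change of 2.53 ± 0.33 (SE, adjusted p = 9.67e-05, edgeR). Celsr3, at 66.6, 60.9 and 72.7 CPM in Input, reached 393, 298 and 401 CPM, a log2 fold change of 2.45 ± 0.18 (adjusted p = 3.11e-06, edgeR). The Celsr2 libraries of the YTHDF1 RIP were further apart than those of Celsr3, and for both genes library 2 was the lowest. Celsr1 changed by 2.60 ± 0.47 on the log2 scale (adjusted p = 0.000778, edgeR). Its YTHDF3 value over the same Input libraries had drawn attention, so its p-values with YTHDF1 and YTHDF2 are not independent of that choice.

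Adgrl3, the latrophilin gene with the greatest exonic length, was at 87.4, 92.3 and 101 CPM in Input. It was at 435, 677 and 620 CPM in the YTHDF1 RIP, with a log2 fold change of 2.62 ± 0.20 (adjusted p = 4.37e-06, edgeR). The other latrophilins were enriched less: Adgrl1 rose by 1.12 ± 0.26 and Adgrl2 by 1.28 ± 0.30 on the log2 scale (adjusted p = 0.00405 and 0.00395, edgeR). Adgrl1 was at 448, 400 and 388 CPM in Input and at 839, 588 and 1256 CPM in the YTHDF1 RIP. Adgrl2 was at 17.5, 31.4 and 30.2 CPM in Input and at 69.6, 41.4 and 81.2 CPM in the YTHDF1 RIP. For both, the libraries of the RIP were above those of Input without overlap.

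Of the BAI mRNAs, Adgrb3, which encodes a receptor of C1q-like proteins, rose by 1.44 ± 0.20 on the log2 scale (adjusted p = 0.000123, edgeR). Its Input libraries were at 53.6, 52.9 and 53.0 CPM and its YTHDF1 RIP libraries at 148, 105 and 179 CPM. Adgrb1, which encodes an engulfment receptor, was at 137, 143 and 98.8 CPM in Input and at 451, 172 and 595 CPM in the YTHDF1 RIP, a change of 1.68 ± 0.43 (adjusted p = 0.00684, edgeR). Adgrb2 was at 249, 261 and 217 CPM in Input and at 479, 226 and 608 CPM in the YTHDF1 RIP, with overlap between the groups. Its log2 fold change of 0.85 ± 0.34 did not pass the test (adjusted p = 0.054, edgeR). Without library 2 of the YTHDF1 RIP, Adgrb2 had a log2 fold change of 1.10 and was called, so that all 9 members were enriched. All 9 were also called without library 2 or library 3 of the YTHDF2 RIP, which share the estimate of the spread. With the 2 groups alone and the replicate block, 5 of 9 were called, where 2390 of all 16820 genes tested were called higher. The calls of Adgrl1 (0.95), Adgrl2 (1.17) and Adgrb1 (1.43) were lost in that fit.

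In the YTHDF2 RIP, again 8 of 9 members were enriched and none depleted, where 16.1% of all genes tested were called higher and 19.3% lower. All 9 had every RIP library above every Input library, as did 25.5% of all genes. The median of the members was 1.16 and that of genes in their length range 0.40. Celsr1 had the highest value of the members, 2.69 ± 0.47 on the log2 scale (adjusted p = 0.00148, edgeR). Celsr2 was at 696, 549 and 891 CPM and Celsr3 at 203, 219 and 182 CPM, with log2 fold changes of 1.56 ± 0.32 and 1.59 ± 0.17 (adjusted p = 0.00352 and 0.00021, edgeR). The Celsr mRNAs were therefore 2.94-fold (Celsr2) to 6.45-fold (Celsr1) above Input with YTHDF2.

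The latrophilin mRNAs rose by 0.92 ± 0.26 (Adgrl1), 1.16 ± 0.30 (Adgrl2) and 1.16 ± 0.19 (Adgrl3) on the log2 scale with YTHDF2 (adjusted p = 0.0183, 0.0116 and 0.00108, edgeR). Adgrl3 was at 202, 235 and 191 CPM there, below every YTHDF1 RIP library. Adgrl1 was at 731, 662 and 947 CPM and Adgrl2 at 54.6, 60.3 and 62.3 CPM. Adgrb1 rose by 1.57 ± 0.43 and Adgrb3 by 1.13 ± 0.19 (adjusted p = 0.0157 and 0.00133, edgeR). Adgrb1 was at 351, 225 and 550 CPM, and Adgrb3 was at 111, 105 and 134 CPM. Adgrb2, at 407, 310 and 633 CPM, did not pass the test, with a log2 fold change of 0.89 ± 0.34 (adjusted p = 0.0627, edgeR). The Adgrl1 call was lost without library 2 or 3 of Input or library 3 of the YTHDF2 RIP, and the Adgrb1 call without library 3 of either group, so that as few as 6 of 9 members were called. Without library 2 of either the YTHDF1 RIP or the YTHDF2 RIP, all 9 were called.

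The YTHDF3 RIP against Input was the comparison that had drawn attention to Celsr1, so its values are given as a description. Of the 9 members, 7 were called higher and none lower, where 16.7% of all genes were called higher and 23.2% lower. All 9 had every RIP library above every Input library, as did 26.8% of all genes. The log2 fold change was 2.01 ± 0.46 for Celsr1, 1.48 ± 0.32 for Celsr2 and 1.39 ± 0.17 for Celsr3. It was 1.23 ± 0.26 for Adgrl1, 1.16 ± 0.30 for Adgrl2 and 1.04 ± 0.19 for Adgrl3. For Adgrb3 it was 1.16 ± 0.19, and for Adgrb1 and Adgrb2, the members that were not called, it was 1.08 ± 0.43 and 0.88 ± 0.34. The median of the members was 1.16, and that of genes in their length range was 0.56, of which 36.3% were called higher. Celsr2 was at 735, 703 and 583 CPM, Celsr3 at 173, 166 and 185 CPM, and Adgrl3 at 176, 197 and 203 CPM. Adgrl1 was at 1046, 987 and 867 CPM, and Adgrb3 at 117, 119 and 120 CPM. The libraries of these genes lay closer together than those of Celsr1.

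Input and YTHDF3 RIP libraries of the same number deviated together from their group means, with correlations across genes of 0.84, 0.54 and 0.81, so that the ratio within a number can be read. For Celsr1 the ratio of RIP to Input was 3.06, 4.15 and 4.33, although its level differed more than 3-fold between the libraries of the RIP. For Celsr3 it was 2.60, 2.73 and 2.54, and for Adgrb2, the lowest, 1.95, 1.84 and 1.71. When the comparison was fitted on these 2 groups alone with the replicate block, all 9 members were called higher, as were 6144 of the 16820 genes tested. All comparisons with Input share the same 3 Input libraries, and the values of a gene in them are not independent of each other.

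**Figure D2:**
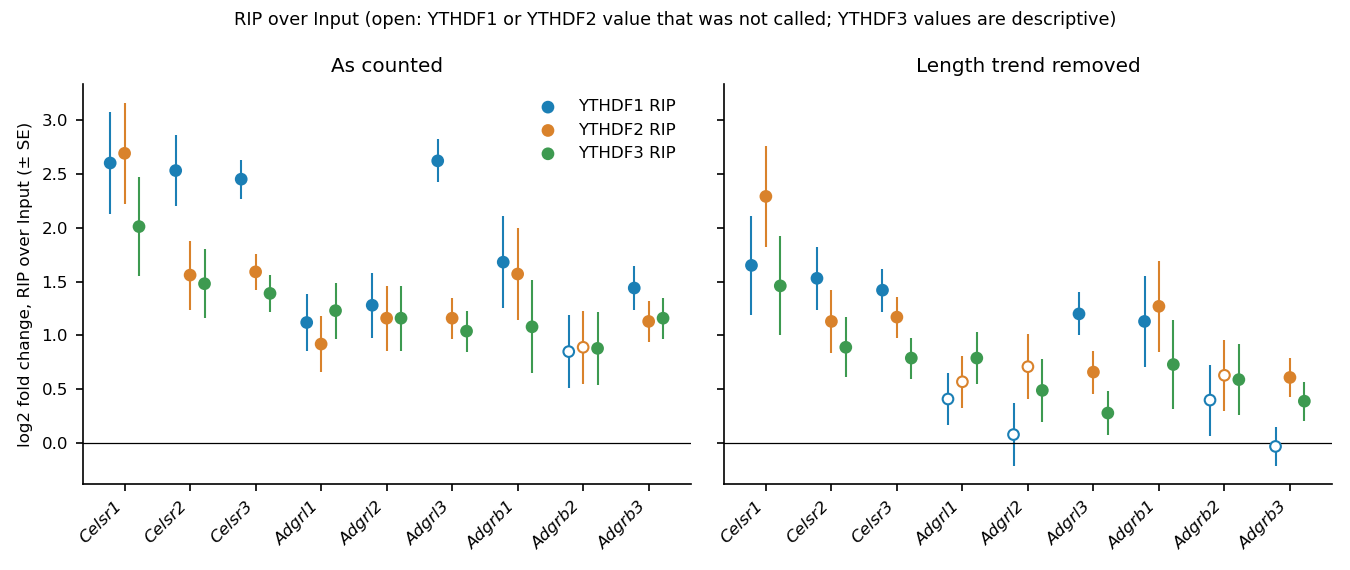
Log2 fold change of RIP over Input (vertical axis, ± SE) of the 9 genes in the 3 RIPs, as counted on the left and with the trend of each library with exonic length removed on the right. As counted, all 27 values are above 0, and with the trend removed Celsr1, Celsr2 and Celsr3 stay between 0.79 and 2.29 while Adgrb3 is at −0.03 with YTHDF1.

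Length moved with enrichment in every RIP. Among genes of up to 1 kb, the median log2 fold change was −1.30 with YTHDF1, −1.10 with YTHDF2 and −1.86 with YTHDF3, and among the 2679 genes over 8 kb it was 0.97, 0.45 and 0.65. When a smooth trend with exonic length was removed from each library, 5 of 9 members were called with YTHDF1, namely Celsr1 (1.65), Celsr2 (1.53), Celsr3 (1.42), Adgrl3 (1.2) and Adgrb1 (1.13, each as log2 fold change). Adgrl1 was then at 0.41 and Adgrl2 at 0.08. Adgrb3, with the greatest exonic length, was at −0.03. Of all 16820 genes tested, this fit called 3766 higher with YTHDF1, 2215 with YTHDF2 and 2601 with YTHDF3. With YTHDF2, 6 of 9 members were called, Celsr1 at 2.29, Celsr2 at 1.13, Celsr3 at 1.17, Adgrl3 at 0.66, Adgrb1 at 1.27 and Adgrb3 at 0.61. With YTHDF3, the values of Celsr1, Celsr2, Celsr3 and Adgrl1 were 1.46, 0.89, 0.79 and 0.79, and these 4 were called. The Celsr mRNAs were called with YTHDF1 and YTHDF2 under this fit as well, and their YTHDF3 values are a description. The trend was taken over merged exons. For Adgrl2, Adgrl3 and Adgrb3 the transcripts used above were much shorter, at 4670, 6203 and 5448 bases. Which transcripts were present was not examined, so the trend removed may not match the length of these mRNAs.

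**Figure D3:**
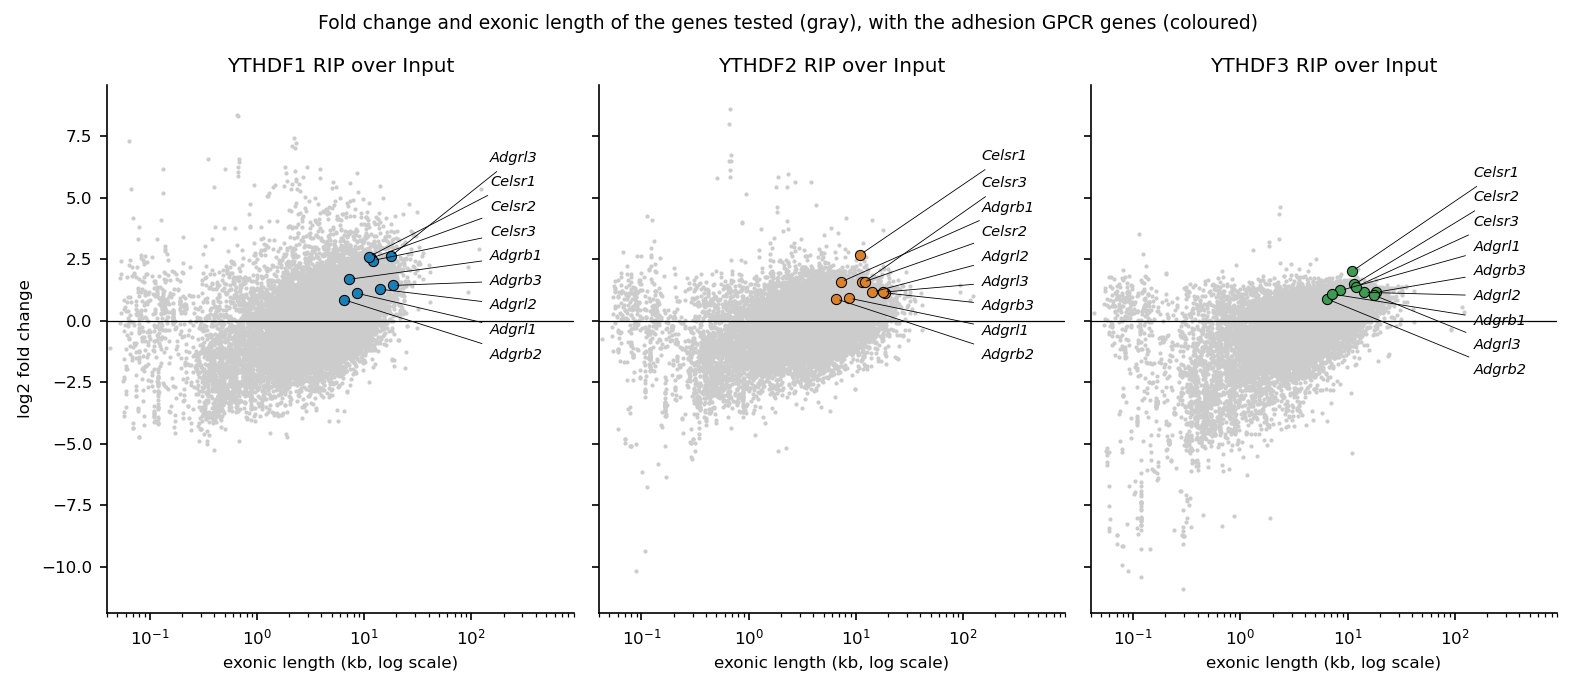
Log2 fold change of each RIP over Input (vertical axis) against exonic length in kb (horizontal axis, log scale) for the 16820 genes tested (gray points), with the 9 adhesion GPCR genes named. Genes of greater exonic length had higher values in each panel, and Celsr1, at 11007 bases, lies near the upper edge of the points of similar length in the YTHDF2 RIP (2.69).

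The 1451 other genes within 20% of the length of Celsr1 had a median of 0.85 with YTHDF1 and 0.42 with YTHDF2, and Celsr1 was at 2.60 and 2.69. The 351 genes within 20% of the length of Adgrb3 had a median of 1.48 with YTHDF1, and Adgrb3 was at 1.44. Lengths here are again those of merged exons.

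To find members that differed between readers, RIPs were compared with each other, and a call required a 2-fold difference with an adjusted p of at most 0.05. YTHDF1 RIP and YTHDF2 RIP share no library with the comparison that chose the genes. Here 1 of 9 members, Adgrl3, was called higher with YTHDF1 and none lower, where 11.4% of all genes tested were called higher and 6.13% lower. The Adgrl3 level was 2.76-fold higher with YTHDF1, a log2 difference of 1.46 ± 0.19 (adjusted p = 0.000259, edgeR), and the 3 libraries of each RIP did not overlap. Celsr2 (0.98 ± 0.32) and Celsr3 (0.85 ± 0.17) passed the test but not the 2-fold threshold (adjusted p = 0.0396 and 0.00307, edgeR), and the libraries of Celsr2 overlapped. The difference of Celsr1 was −0.09 ± 0.44 (adjusted p = 0.906, edgeR), and its interval by the normal approximation reached from −0.96 to 0.77, so that a difference of more than 1.5-fold either way is not excluded by these libraries. The other 5 members lay between −0.04 for Adgrb2 and 0.30 for Adgrb3, and none of them passed the test.

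Against the YTHDF3 RIP, 3 of 9 members were called higher with YTHDF1 and none lower, where 11.0% of all genes were called higher and 3.62% lower. Adgrl3 was 3.01-fold higher, with a log2 difference of 1.59 ± 0.19 (adjusted p = 0.000276, edgeR). Celsr2 and Celsr3 were both 2.08-fold higher, with log2 differences of 1.06 ± 0.32 and 1.06 ± 0.17 (adjusted p = 0.0336 and 0.00128, edgeR). Celsr2 overlapped with the YTHDF3 RIP in no library, but its lowest YTHDF1 RIP library, at 755 CPM, was close to the highest YTHDF3 RIP library, at 735 CPM. Celsr1 had 0.59 ± 0.44 and Adgrb1 0.60 ± 0.42, which did not pass the test (adjusted p = 0.38 and 0.35, edgeR). The YTHDF3 libraries are those that had drawn attention to Celsr1, so the Celsr1 p-value is not independent of that choice. The other 4 members lay between −0.11 and 0.28.

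Between YTHDF2 RIP and YTHDF3 RIP, 0 of 9 members were called by edgeR in either direction, and DESeq2 called none either, where edgeR called 3.97% of all genes higher and 1.17% lower. No member had an unadjusted p under 0.05 in edgeR, of which the lowest was 0.151 for Celsr1. Here too the Celsr1 p-value rests on the YTHDF3 libraries that had drawn attention to this gene. Differences ran from −0.31 ± 0.26 for Adgrl1 to 0.68 ± 0.44 for Celsr1 on the log2 scale.

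The differences between readers depended on scaling and length. With the length trend removed, the Adgrl3 differences were 0.54 and 0.92 and with library size alone 0.97 and 0.83, against YTHDF2 and YTHDF3, and neither was called. Against the YTHDF3 RIP, the call was kept in 19 of 23 alternatives for Adgrl3, in 11 for Celsr3 and in 4 for Celsr2. Celsr2 and Celsr3 were at 0.63 each against the YTHDF3 RIP with the length trend removed, and DESeq2 called only Adgrl3 there. The replicate block lowered Celsr2 to 0.98, which was not called, and with the 2 groups alone and the block none of the 3 was called (Adgrl3 at 1.37). Without library 3 of the YTHDF1 RIP or library 3 of Input, only 1 member, Adgrl3, was called against the YTHDF3 RIP, and against the YTHDF2 RIP 2 were called without library 2 of the YTHDF1 RIP or library 3 of the YTHDF2 RIP.

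**Figure D4:**
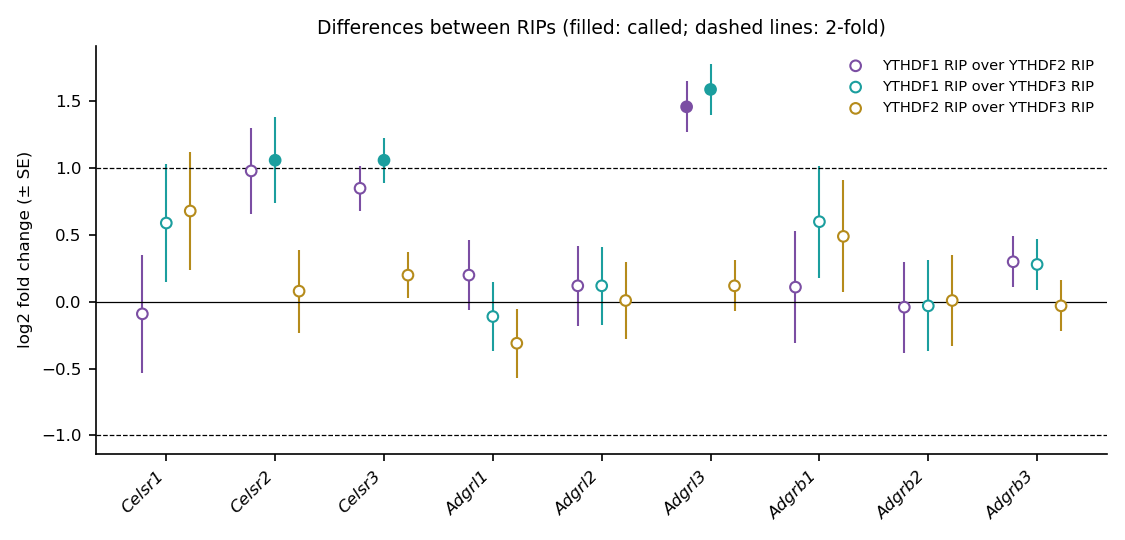
Log2 difference between RIPs (vertical axis, ± SE) for the 9 genes, with filled points for called differences and dashed lines at a 2-fold difference. Adgrl3 lies clear of the line in both comparisons of the YTHDF1 RIP, at 1.46 and 1.59, and Celsr2 and Celsr3 lie on it, at 1.06 against the YTHDF3 RIP.

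The pattern of Celsr1 over the 12 libraries was most like that of Shroom3, Msh6 and Klhl25, with Pearson correlations of log2 CPM of 0.978, 0.972 and 0.969, out of 9628 protein-coding genes compared. Of the members, Adgrl2 was most like it (0.89), ahead of Celsr3 and Adgrb3 (0.86 each), and Adgrb2 least (0.55). These values are a description, since the libraries fall into 4 groups.

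The ligands of latrophilins, teneurins and FLRT proteins, moved with YTHDF1 in the same direction as the receptors. Counts of these lists are read against the shares of all genes given above, except under alternatives, where other numbers of genes were called. The 2 groups alone with the replicate block called 2390, 2000 and 6144 of 16820 genes higher with YTHDF1, YTHDF2 and YTHDF3. With the length trend removed, these numbers were 3766, 2215 and 2601. YTHDF3 values are again a description. All 7 ligand mRNAs tested were enriched, with a median log2 fold change of 2.12, led by Tenm2 (2.52 ± 0.26, adjusted p = 2.21e-05, edgeR) and Flrt1 (2.23 ± 0.22, adjusted p = 1.92e-05). With YTHDF2, 3 of 7 were enriched, at most Tenm3 (1.19 ± 0.27, adjusted p = 0.00552) and Flrt1 (1.03 ± 0.22, adjusted p = 0.00399). With YTHDF3, 6 of 7 were called higher, and Tenm3 (1.26 ± 0.27) and Tenm4 (1.18 ± 0.35) had the highest values. Between RIPs, 6 of 7 ligand mRNAs were called higher with YTHDF1 than with YTHDF2, and 3 of 7 higher than with YTHDF3. With library size alone these counts were 3 and 0, and with the length trend removed 4 and 1. Against YTHDF3 the count was 0 without library 3 of the YTHDF1 RIP and 5 without its library 2. None of them was depleted with any reader. Once the length trend was removed, 5, 2 and 3 of them were called higher with YTHDF1, YTHDF2 and YTHDF3.

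The next list held the Fat and Dachsous cadherins, giant cadherins that act beside the CELSR proteins in tissue polarity. It also held Fjx1, which does not encode a cadherin. All of its genes tested were enriched with YTHDF1, 6 of 6, with a median of 2.65. Fjx1 was among them (1.48 ± 0.29) and was also called with YTHDF2 and YTHDF3. Dchs2 rose by 3.43 ± 0.48 and Fat4 by 3.06 ± 0.32 on the log2 scale (adjusted p = 0.000149 and 2.42e-05, edgeR). With YTHDF2, 5 of 6 were enriched and led by Dchs1 (1.86 ± 0.24) and Fat4 (1.80 ± 0.30), and with YTHDF3 6 of 6, led by the same genes at 1.50 ± 0.24 and 1.46 ± 0.30. Without library 2 of the YTHDF3 RIP, 3 of them were called. With the length trend removed, 6, 4 and 2 of them were called with YTHDF1, YTHDF2 and YTHDF3, Fjx1 among them each time.

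Of the core planar cell polarity genes, 5 of 11 were enriched with YTHDF1 and none was depleted, with a median of 0.91. Prickle1 (2.03 ± 0.53) and the Wnt receptor gene Fzd3 (1.98 ± 0.43), which acts with Celsr3 in axon tracts, had the highest values (adjusted p = 0.00713 and 0.00255, edgeR). With YTHDF2, Dvl2 (1.02 ± 0.27) and Dvl1 (0.80 ± 0.22), which encode Dishevelled adaptors, were among 3 enriched genes, and their relative Dvl3 was depleted, at −0.84 ± 0.21 (adjusted p = 0.00955, edgeR). With YTHDF3, 1 of 11 was called higher, Ankrd6 at 0.92 ± 0.23, but 8 of 11 were called with the 2 groups alone and the replicate block, and 3 without library 2 of the YTHDF1 RIP. The same blocked fit called 2 with YTHDF1 and 0 with YTHDF2. With the length trend removed, 1, 0 and 1 were enriched and 1, 1 and 0 depleted with YTHDF1, YTHDF2 and YTHDF3, and the YTHDF2 count was 1 without any single Input library or library 2 of the YTHDF2 RIP.

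Among 11 tested partners and effectors of BAI proteins, 4 were enriched and 1 depleted with YTHDF1, 1 and 1 with YTHDF2, and 3 and 1 with YTHDF3. Bcr, which encodes a RAC regulator, rose by 1.17 ± 0.23 with YTHDF1 and by 1.04 ± 0.23 with YTHDF2 on the log2 scale (adjusted p = 0.00126 and 0.00502, edgeR), and its value with YTHDF3 was 1.2 ± 0.23. Rtn4r, the Nogo receptor gene, rose by 1.34 ± 0.29 with YTHDF1 (adjusted p = 0.00267, edgeR) and was at 0.97 ± 0.29 with YTHDF3. Elmo1, which encodes the adaptor that joins BAI1 to DOCK proteins, was depleted with YTHDF1 and YTHDF2, at −1.19 ± 0.21 and −1.83 ± 0.22 (adjusted p = 0.000772 and 0.000318, edgeR), and was at −0.88 ± 0.21 with YTHDF3. Its exonic length of 12580 bases is in the range of the enriched receptors. With the length trend removed, 2, 2 and 3 of the list were enriched and 1 depleted with each reader. The YTHDF1 count of enriched genes was 2 without library 3 of Input or of the YTHDF1 RIP, and the YTHDF2 count was 3 without library 2 of the YTHDF1 RIP and 2 without its library 1 or library 2 of the YTHDF2 RIP. The YTHDF3 count was 1 without library 3 of Input or library 2 of the YTHDF3 RIP. With the 2 groups alone and the replicate block, 1 gene was enriched with YTHDF1 and 7 were called higher with YTHDF3.

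Of the remaining adhesion GPCR genes, 7 of 21 passed the filter on low counts. Adgrg1 was the highest of these in Input, with a mean of 93.5 CPM, near that of Adgrl3 at 93.7 CPM. Of the 7, 4 were enriched with YTHDF1, among them Adgrv1 (1.78 ± 0.65) and Adgra2 (1.31 ± 0.41), and none with YTHDF2 (adjusted p = 0.0367 and 0.0175 for the named genes, edgeR). With YTHDF3, 1 was called higher, Adgra3 (0.74 ± 0.24). The YTHDF1 count was 0 without library 3 of the YTHDF1 RIP, 1 without library 1 of Input and 2 without library 2 or 3 of Input. The YTHDF3 count was 0 without library 1 or 2 of Input or library 2 of the YTHDF3 RIP, and 2 without library 2 or 3 of the YTHDF1 RIP. With the 2 groups alone and the replicate block, 1 was called with YTHDF1 and 5 with YTHDF3. The medians were 0.73, 0.60 and 0.68. With the length trend removed, none of them was enriched with any reader and 1 was depleted with YTHDF1.

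**Figure D5:**
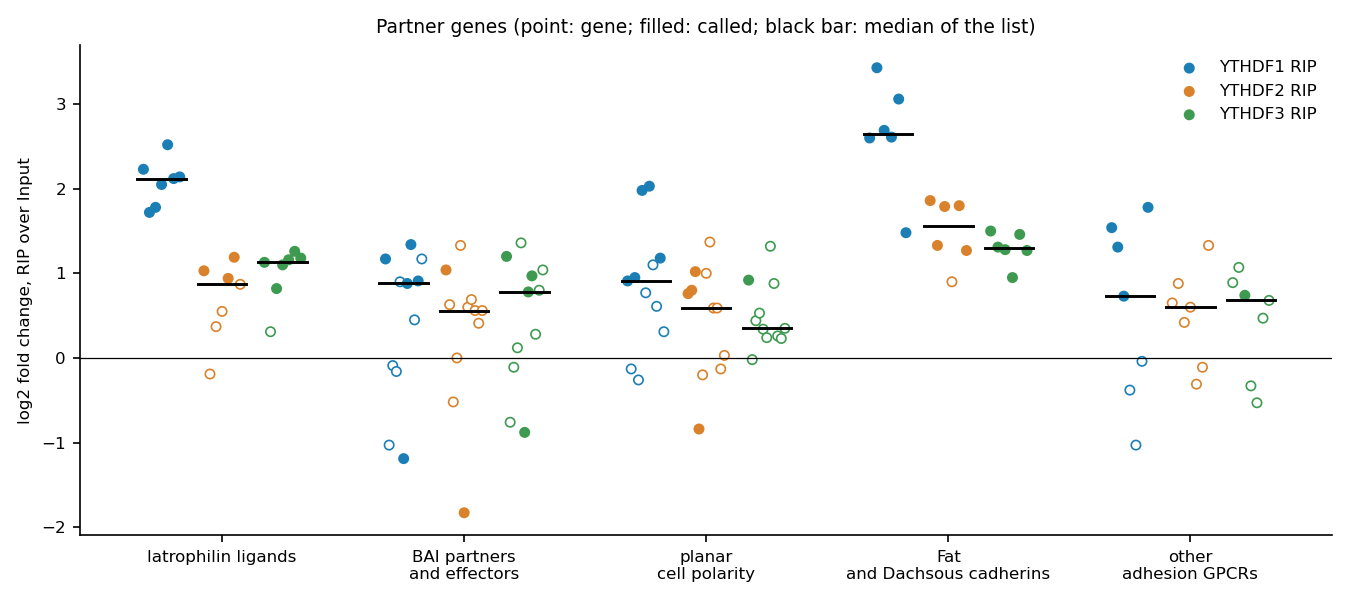
Log2 fold change of RIP over Input (vertical axis) for the genes tested of 5 lists of partner genes (horizontal axis), with colours for the 3 RIPs, filled points for calls and black bars for the median. The latrophilin ligands and the list of Fat and Dachsous cadherins with Fjx1 have their highest medians with YTHDF1, at 2.12 and 2.65. Elmo1 is the lowest filled point of the BAI partners with each reader.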

How the data were processed

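Gene counts of 12 RNA libraries were used as deposited. Per the labels and the study's methods, the authors trimmed reads with cutadapt 3.4, collapsed UMIs with UMI-tools 1.1.1, aligned to mm10 (GRCm38) with STAR 2.7.7a and made the counts with featureCounts 2.0.1 (Ensembl 97, strand-specific, multi-mapping and multi-overlapping reads counted for each gene, which can add reads shared between related genes). The authors' table of base means, a signal scaled by size factors and pooled over libraries, was used only for gene names, and the authors' own fold changes and p-values were not used. All count columns matched a sample (0 did not).

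The 16820 genes whose normalized count averaged 10 or more were tested in edgeR 4.0.16 (R 4.3.3) with TMM factors, 1 model of 4 groups and quasi-likelihood tests, with Benjamini-Hochberg adjustment over all genes tested. The biological coefficient of variation was 0.322. SE was the log2 fold change divided by the root of F. CPM are TMM-scaled. Calls needed 1.25-fold (against Input) or 2-fold (between RIPs) and an adjusted p of at most 0.05. The code was tested on simulated data. P-values measure the spread between 3 libraries a group. Celsr1 and Adgrl2, which were low in Input, had at least 229 and 230 counts in every library. The Celsr1 libraries of a group were far apart.

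The members and lists were chosen with earlier results of these data known. Named genes were the 9 members, the 2 highest and 2 lowest called genes of each list whose libraries did not overlap with Input, and the 3 genes most correlated with Celsr1 of those with a mean of at least 100 normalized counts. Alternatives were DESeq2 1.42.0, other scalings, filters, a replicate block, the 2 groups alone, removal of a loess trend with length (span 0.3) and leaving out each library. They were also applied to the partner lists, which was decided after seeing the data. The methods describe 1 lysate per replicate for the Input and all RIPs, which would pair all groups by number. In the data, libraries of the same number deviated together in every replicate only between Input and YTHDF3 RIP (correlations of 0.84, 0.54 and 0.81). Transcript sequences came from GENCODE (GRCm38).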

Additional observations from a re-analysis of the deposited data

Results flagged for a closer look

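These differences between RIPs passed the direct test of the difference. Adgrl3 was higher in the YTHDF1 RIP than in the YTHDF2 RIP by 1.46 and than in the YTHDF3 RIP by 1.59 on the log2 scale, in all 3 libraries of the YTHDF1 RIP against all 3 of the other. Celsr2 and Celsr3 were higher in the YTHDF1 RIP than in the YTHDF3 RIP by 1.06 each, at the 2-fold threshold.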

How the results depend on the processing

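All 27 values against Input kept their direction under the 23 alternatives except that of Adgrb3 with YTHDF1, which became −0.03 with the length trend removed and −0.04 when the replicate block was added. No member was called lower in any fit.

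Against Input, DESeq2 kept every call of the members. It added Adgrb2 with YTHDF1 and YTHDF2, and Adgrb1 and Adgrb2 with YTHDF3. DESeq2 called 4666, 2953 and 3422 of all 16820 genes higher with YTHDF1, YTHDF2 and YTHDF3. The number of members called against Input with YTHDF1 fell from 8 to 5 with the 2 groups alone and the replicate block. With the length trend removed it fell to 5, and to 4 with the block added. With YTHDF2 it fell from 8 to 5 with the length trend removed and the block, and with YTHDF3 from 7 to 4 with the length trend removed, with or without the block. Between YTHDF1 RIP and YTHDF2 RIP it moved from 1 to 0 with library size alone or the length trend removed, with or without the block, and to 2 with no filter, and leaving out 1 library gave 1 to 2. Between YTHDF1 RIP and YTHDF3 RIP it moved from 3 to 1 with DESeq2, its size factors, TMM over protein-coding genes, no filter, a minimum mean of 50, or the 2 groups alone with no block. It was 0 there with library size alone, the 2 groups alone with the block, or the length trend removed with or without the block, and leaving out 1 library gave 1 to 3.

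For the other pairs of groups, same-numbered libraries did not deviate together in every replicate. Correlations were 0.07, 0.55 and 0.36 between YTHDF1 RIP and YTHDF2 RIP, and 0.11, −0.34 and −0.35 and 0.17, −0.32 and −0.35 between these and YTHDF3 RIP. Correlations with Input were 0.09, −0.27 and −0.33 for the YTHDF1 RIP and 0.19, −0.33 and −0.32 for the YTHDF2 RIP. In the fit of all libraries the block changed only the call of Celsr2 between YTHDF1 RIP and YTHDF3 RIP among the members, and 2 instead of 3 were called.

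Of 23 differences between RIPs that were not called, 17 changed sign under an alternative. For YTHDF1 RIP minus YTHDF2 RIP, library size alone gave −0.26 (Adgrl1), −0.34 (Adgrl2), −0.31 (Adgrb1) and −0.15 (Adgrb3). The length trend removed gave −0.17, −0.62, −0.13 and −0.63 for these genes and, with the block, −0.19, −0.60, −0.16 and −0.65. Protein-coding TMM gave −0.02 for Adgrl2 and Adgrb1, the 2 groups alone with the block −0.02 for Adgrb1, and no filter 0.02 for Adgrb2. Leaving out 1 library gave −0.32 to 0.07 for Celsr1, −0.19 to 0.38 for Adgrl1, −0.15 to 0.31 for Adgrl2, −0.32 to 0.49 for Adgrb1 and −0.41 to 0.29 for Adgrb2.

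For YTHDF1 RIP minus YTHDF3 RIP, library size alone gave −0.19 (Celsr1), −0.61 (Adgrl2), −0.10 (Adgrb1) and −0.45 (Adgrb3). The length trend removed gave −0.41 for Adgrl2 and −0.42 for Adgrb3, and −0.37 and −0.43 with the block. For Adgrl2, protein-coding TMM gave −0.09, no filter −0.06, a minimum mean of 50 gave 0.0, and the 2 groups alone −0.08 with the block and −0.07 without. Leaving out 1 library gave −0.22 to 0.29 for Adgrl2, −0.46 to 0.17 for Adgrb2 and −0.05 to 0.34 for Adgrb3.

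For YTHDF2 RIP minus YTHDF3 RIP, library size alone gave −0.19 (Celsr2), −0.05 (Celsr3), −0.27 (Adgrl2), −0.13 (Adgrl3) and −0.26 (Adgrb2), and no filter −0.15, −0.03, −0.23, −0.11 and −0.22. The 2 groups alone gave −0.06 (Celsr2), −0.08 (Adgrl2) and −0.16 (Adgrb2) with the block and −0.04, −0.13 and −0.10 without. Protein-coding TMM gave −0.07 (Adgrl2) and −0.05 (Adgrb2), DESeq2 and its size factors −0.05 and −0.04 each, and a minimum mean of 50 gave −0.01 for Adgrl2. The length trend removed gave 0.22 for Adgrb3 with or without the block, and with the block −0.02 for Adgrb2, which was −0.05 under the replicate block alone. Leaving out 1 library gave −0.11 to 0.23 for Celsr2, −0.19 to 0.17 for Adgrl2, −0.31 to 0.22 for Adgrb2 and −0.14 to 0.04 for Adgrb3.

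Library size alone moved the median of all genes by −0.40, 0.07 and 0.33 (log2) against Input with YTHDF1, YTHDF2 and YTHDF3, and calls were then 33.4%, 48.9% and 61.7% higher, compared with 51.3%, 45.5% and 41.9%. Between RIPs it moved the median by −0.47 (YTHDF1 minus YTHDF2), −0.73 (YTHDF1 minus YTHDF3) and −0.26 (YTHDF2 minus YTHDF3), and 27.9%, 18.3% and 39.6% of calls were higher in place of 65.1%, 75.2% and 77.2%. TMM over protein-coding genes moved the YTHDF1 median by −0.24, with 40.1% of calls higher, and gave 53.8% and 58.8% higher calls for YTHDF1 RIP minus YTHDF2 RIP and minus YTHDF3 RIP. The cause of these shifts was not tested.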
